A study of Mus musculus with 2 samples.

Results

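The chemokine system of the mouse colon was described as the set of all genes whose symbol began with Ccl, Cxcl, Cx3cl, Ccr, Cxcr, Cx3cr or Ackr followed by a number. This rule used names only and no measured value. It found 44 of the 17809 genes listed for the wild-type library and 41 of the 15972 genes listed for the reporter library, 45 members in all, of which 40 were in both libraries. The members were 29 ligands, 12 signalling receptors and 4 atypical receptors.

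Single-cell RNA was measured in 2 libraries. The wild-type library held colon cells of C57BL/6 mice, with EpCAM-positive CD45-negative epithelial cells and EpCAM-negative CD45-negative stromal cells sorted and mixed in equal parts, made with the version 3 kit. The reporter library held GFP-positive colon cells of Pdgfra-H2B-eGFP mice, in which the Pdgfra locus drives a nuclear green protein, sorted without an antibody against CD45 or EpCAM and made with the version 2 kit. Each library pooled 3 female mice aged 8 to 12 weeks, and cells were not assigned to mice, so there is 1 library per genotype, no replicate, no test and no error between mice.

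Chemokines are small secreted proteins that guide the movement of leukocytes along gradients. They act through G protein-coupled receptors that sit mainly on leukocytes, while the atypical receptors (Ackr) bind chemokines without classical G protein signalling and clear, transport or present them. Some ligands are made at all times and keep cells in their tissues, and others are induced by inflammatory signals through NF-kB or interferon, with stromal and epithelial cells among the sources and leukocytes as the main responders.

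Of the 45 members, 8 lie on chromosome 5 and 13 on chromosome 11 of GRCm38, most of them in runs of neighbouring ligand genes. Cxcl5, Cxcl3, Cxcl1 and Cxcl2, which attract neutrophils, lie between 90759360 and 90905938 of chromosome 5. Cxcl9, Cxcl10 and Cxcl11, the interferon-inducible ligands of the T cell receptor Cxcr3, lie between 92321347 and 92365485 of the same chromosome. Ccl2, Ccl7, Ccl11, Ccl12 and Ccl8, which attract monocytes and eosinophils, lie between 82035571 and 82116799 of chromosome 11. The promoters of 4 chromosome 5 ligands are printed because these ligands differed between the fibroblast states described further on. Cxcl1, Cxcl9 and Cxcl10 also differed between the endothelial clusters. Each runs from 250 bases before to 50 bases from the annotated start on, 5′ to 3′ on the strand of the gene, on GRCm38.p6 from RefSeq, with stretches that match the kappa B motif or the interferon-stimulated response element (ISRE, the letters GAAA, 2 free bases and GAAA) on either strand in capitals. The windows are chr5:90890995-90891294 for Cxcl1 and chr5:90903649-90903948 for Cxcl2 on the plus strand, and chr5:92328030-92328329 for Cxcl9 and chr5:92348840-92349139 for Cxcl10 on the minus strand.
Cxcl1: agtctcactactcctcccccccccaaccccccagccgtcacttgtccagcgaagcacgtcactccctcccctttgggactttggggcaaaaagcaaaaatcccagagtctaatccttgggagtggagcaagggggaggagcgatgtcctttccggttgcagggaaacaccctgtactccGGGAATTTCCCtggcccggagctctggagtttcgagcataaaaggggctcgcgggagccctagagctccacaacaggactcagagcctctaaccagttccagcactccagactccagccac
Cxcl2: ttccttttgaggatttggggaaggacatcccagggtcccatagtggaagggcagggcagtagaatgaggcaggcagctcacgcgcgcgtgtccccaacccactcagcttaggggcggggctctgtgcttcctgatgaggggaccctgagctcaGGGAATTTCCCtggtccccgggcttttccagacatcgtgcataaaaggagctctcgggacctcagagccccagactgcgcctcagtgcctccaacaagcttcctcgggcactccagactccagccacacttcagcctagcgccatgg
Cxcl9: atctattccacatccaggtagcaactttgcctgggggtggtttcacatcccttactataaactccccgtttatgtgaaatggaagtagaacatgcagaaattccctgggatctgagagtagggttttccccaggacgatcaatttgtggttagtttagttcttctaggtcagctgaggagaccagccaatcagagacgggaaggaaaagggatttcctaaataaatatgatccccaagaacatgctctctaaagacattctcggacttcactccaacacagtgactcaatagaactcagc
Cxcl10: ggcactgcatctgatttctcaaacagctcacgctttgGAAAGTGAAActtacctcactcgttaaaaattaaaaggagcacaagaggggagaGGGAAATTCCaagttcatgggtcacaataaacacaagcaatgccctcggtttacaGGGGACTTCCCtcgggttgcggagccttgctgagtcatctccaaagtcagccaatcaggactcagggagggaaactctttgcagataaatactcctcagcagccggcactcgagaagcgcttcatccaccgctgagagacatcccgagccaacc

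The neighbours Cxcl1 and Cxcl2 carried the same letters at their single kappa B stretch, which began 71 bases before the start in Cxcl1 and 97 in Cxcl2. Cxcl10 carried 2 kappa B stretches, which began 159 and 104 bases before the start, and an ISRE match 213 bases before it. The Cxcl9 window held neither motif, which says only that these letters are not in it. Over all 32851 promoter windows of that length, 8.46% held the kappa B motif and 3.44% the ISRE, and among the 32 members with a window 9 held the first (Ackr2, Ccl20, Ccl27a, Ccl9, Ccr1, Cxcl1, Cxcl10, Cxcl2 and Cxcl3) and 3 the second (Ccl19, Cxcl10 and Cxcl14). The GAS motif TTCNNNGAA was in 8.30% of all windows and in 1 member, Cxcl14. The shares over all windows are per window, while a member was counted when any of its windows matched. Ccl27a has several windows and matched in only 1 of them, past the start. A match is a description of the letters and not a binding site.

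The deposited values are corrected counts, whole numbers that the authors' SCTransform step set to a common depth per cell, so each level below is the corrected count averaged over the cells of a class, and a value above 0 need not be a molecule of that cell. The deposited wild-type library had 7495 cells with a median total of 8972 and a median of 2804 genes per cell. The reporter library had 4409 cells with a median of 3150 and 1381 genes. The study's methods give a slightly smaller final count of wild-type cells and the same count of reporter cells. Because the libraries were corrected apart and made with different kits, levels were compared only within a library. Clusters were formed without the chemokine family and named by marker lists that hold no member, with the ending “-like”. They were crypt top fibroblasts (CTFs), 2 kinds of crypt bottom fibroblasts (CBFs1 and CBFs2), smooth muscle, pericyte, blood and lymphatic endothelial, glia, interstitial cell of Cajal, immune and epithelial clusters. The CD45-negative sort still held an immune-like cluster of 40 cells, and the GFP sort one of 113 cells and an epithelial cluster of 52. The libraries shared 1 cell barcode. A ratio of class means is given on the log2 scale after adding 0.01, a gene was compared when its corrected counts summed to at least 20 over the cells compared, and a member is called higher or lower past 2-fold. A low gene can pass that sum through its high class alone, so counts of members are descriptions.

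Shares of cells above 0 carry exact 95% Clopper-Pearson intervals, which cover counting error only. Free RNA can put a cell above 0 for a gene that it does not express. Ccl6, a goblet-like gene, was above 0 in 4.49% of the CBFs1-like cells (median of 2685 genes per cell), against 92.3% of the goblet-like cells (3290 genes). Cxcl12, a stromal gene, was above 0 in 4.70% of the goblet-like cells. The epithelial list of 10 genes summed to a mean of 3.65 in the CBFs1-like cells and 10.9 in the Kdr-led blood endothelial-like cluster, against 106 to 318 in the named epithelial clusters and the epithelial cluster led by Krt36.

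Most members were highest outside the fibroblasts. In the wild-type library the immune-like cluster had the highest class mean for 17 members, blood endothelial-like cells for 5, lymphatic endothelial-like cells for 4, CBFs2-like and pericyte-like cells for 3 each, and CTFs-like and CBFs1-like cells for 2 each. A mean of at least 0.1 in some class or cluster of 30 or more cells was reached by 39 members, namely 26 ligands, 9 receptors and the 4 atypical receptors. The other 6, Ccl12, Ccl19, Cxcl17, Cxcr2, Cxcr3 and Cxcr5, stayed below it.

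**Figure D1:**
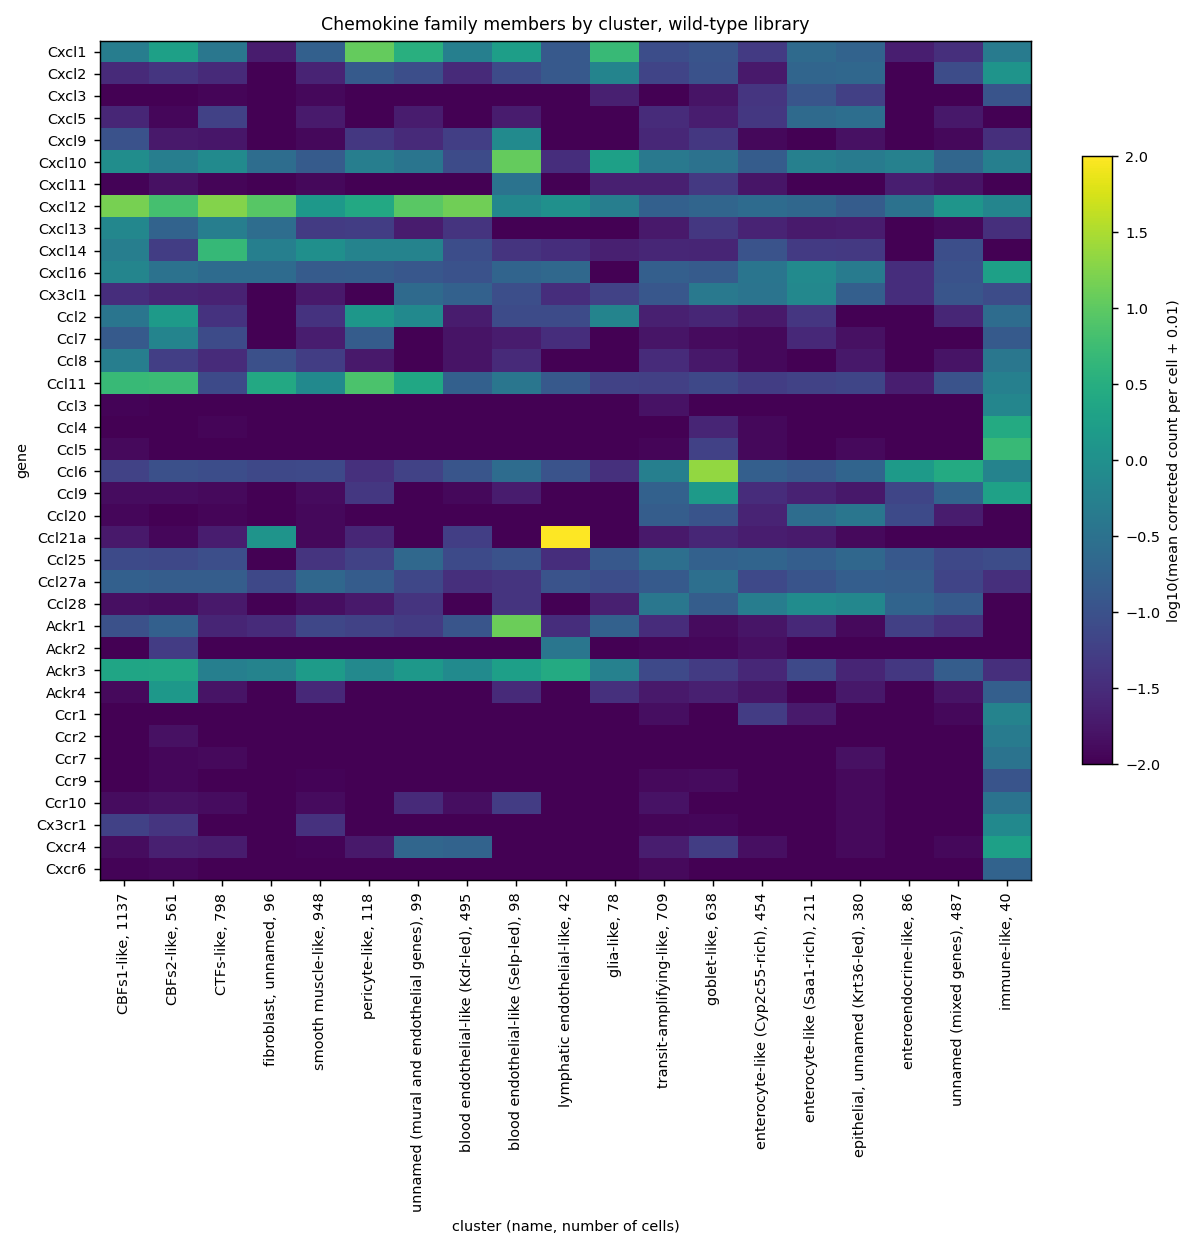
Mean corrected count per cell (colour, log scale) of the chemokine family members in rows across the clusters of the wild-type library in columns, 1 library with no replicate. The map draws 38 of the 39 members that reached a mean of 0.1, in 19 clusters, and brighter colours are higher. The signalling receptors rise above the darkest colours mainly in the immune-like column of 40 cells, Ccl21a reaches 147 in the lymphatic endothelial-like column, and Cxcl12 is bright in each fibroblast column and in the Kdr-led blood endothelial-like column, at 13.6, but not in the Selp-led one, at 0.694.

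Cxcl12, the homeostatic ligand of Cxcr4 that holds haematopoietic cells in their niches, was found in all named fibroblast types. Its wild-type means were 18.2 (CTFs-like), 15.02 (CBFs1-like) and 6.68 (CBFs2-like). Nearly every CBFs1-like cell had it (99.6%, 95% interval 99.0 to 99.9), as did 90.7% (88.5 to 92.6) of CTFs-like and 90.02% (87.2 to 92.4) of CBFs2-like cells. Among reporter cells it averaged 15.01 in the larger CTFs-like cluster but 3.95 in the one led by Ptprr, 9.49 to 13.02 in the 3 CBFs1-like clusters and 3.09 in CBFs2-like cells. On the log2 scale CBFs2-like lay below CBFs1-like cells, with ratios of -1.17 (wild-type library) and -1.86 (reporter library). Smooth muscle-like cells, at 1.33, lay far below the fibroblasts.

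Cxcl14, a ligand of epithelia and fibroblasts, was highest in the crypt top cells. Its wild-type means were 4.77 (CTFs-like), 0.507 (CBFs1-like) and 0.0428 (CBFs2-like). It was above 0 in 66.8% (63.4 to 70.1) of CTFs-like, 14.8% (12.8 to 16.97) of CBFs1-like and 1.78% of CBFs2-like cells. Smooth muscle-like cells also carried it, at 0.968 and 37.3% (34.3 to 40.5) of cells. Both reporter CTFs-like clusters had it, with 4.88 in the cluster led by Ptprr (92.8%, 86.3 to 96.8) and 3.13 in the larger one (70.5%, 66.4 to 74.3), against 0.088 in CBFs2-like cells. Set over all CBFs-like cells, CTFs-like cells had log2 ratios of 3.72 (wild-type library) and 3.34 (reporter library).

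Ccl11, the eosinophil ligand known as eotaxin, had the opposite layout. Its wild-type means were 5.35 (CBFs2-like), 4.99 (CBFs1-like) and 0.0702 (CTFs-like), and CTFs-like over all CBFs-like cells gave -6.00 on the log2 scale. It was above 0 in 73.4% (69.6 to 77.1) of CBFs2-like, 54.9% (51.9 to 57.8) of CBFs1-like and 2.63% of CTFs-like cells, and in 1.37% of epithelial cells. The reporter ratio was -4.15, with shares of 71.1% in CBFs-like and 7.08% in CTFs-like cells. Pericyte-like cells had the highest Ccl11 of any wild-type cluster, 7.45, with 69.5% (60.3 to 77.6) of 118 cells above 0.

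The monocyte ligands of the same chromosome 11 run leaned to the crypt bottom as well, though not to the same type. Wild-type means of Ccl2 were 1.504 (CBFs2-like), 0.344 (CBFs1-like) and 0.0288 (CTFs-like). A single CBFs2-like cell held 41.8% of that class's Ccl2, and without it the mean was 0.877. Ccl7 averaged 0.629, 0.127 and 0.0714 in the same order of classes. Ccl8 was highest in CBFs1-like cells, at 0.509 and 20.9% (18.6 to 23.4) of cells, against 0.0446 in CBFs2-like and 0.0213 in CTFs-like cells. Within the crypt bottom Ccl8 and Ccl7 lay on opposite sides, with log2 ratios of CBFs2-like over CBFs1-like cells of -3.25 and 2.23 (wild-type library) and -1.70 and 1.88 (reporter library).

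Across CTFs-like against CBFs-like cells of the wild-type library (798 and 1698 cells), 23 members were compared, of which 2 were higher past 2-fold in CTFs-like cells (Cxcl14 and Cxcl5) and 12 lower, with 5.11% of the 13043 genes compared higher and 8.07% lower. The lower members were Ccl11, Ccl2, Ccl8, Ccl7, Cxcl1, Cxcl9, Cxcl16, Ackr1, Ackr2, Ackr3, Ackr4 and Cx3cr1. Ackr2 and Cx3cr1 were listed at 0 in CTFs-like cells. The members' median log2 ratio was -1.14, against -0.05 over all genes compared. Cxcl5 rested on 9 CTFs-like cells and fell to a log2 ratio of 0.33 when each cell was thinned to 1000 corrected counts.

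The same comparison in the reporter library (636 and 3608 cells) covered 24 members, with Cxcl14 and Cxcl11 higher and 10 lower, against 4.76% and 5.04% of 12481 genes. Of these 10, 8 were past 2-fold on the lower side in both libraries, namely Ackr1, Ackr3, Ackr4, Ccl2, Ccl7, Ccl11, Ccl8 and Cx3cr1, the last of them listed at 0 in CTFs-like cells of both. The other reporter members on that side were Cxcl2 and Ccl19. The members' median was -0.70, against 0.12 over all genes. When CTFs-like cells were set against CBFs2-like cells and the single CBFs1-like cluster led by C1qtnf3, 5 of 24 members were higher (Cxcl2, Cxcl9, Cxcl10, Cxcl11 and Cxcl14) and 8 lower, against 7.48% and 5.61% of all genes. Cxcl2 then turned from -1.36 to 1.198.

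Within the crypt bottom of the wild-type library, 22 members were compared between 561 CBFs2-like and 1137 CBFs1-like cells. In CBFs2-like cells 5 were higher (Ackr4, Ackr2, Ccl7, Ccl2 and Cxcl1, with Ackr2 listed at 0 in CBFs1-like cells) and 6 lower (Cxcl14, Ccl8, Cxcl9, Cxcl13, Cxcl5 and Cxcl12), against 6.11% and 4.54% of 12398 genes. Cxcl1, a neutrophil ligand, averaged 1.86 against 0.493, with 28.0% (24.3 to 31.9) and 12.6% (10.7 to 14.6) of cells above 0. Cxcl13, the B cell ligand of Cxcr5, averaged 0.175 against 0.693. The median ratio of the members was -0.13 and that of all genes 0.01.

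Among reporter cells 3 of 24 members were higher in CBFs2-like cells (Ackr4, Ackr1 and Ccl7) and 11 lower, against 3.27% and 5.85% of 12139 genes, with medians of -0.69 and -0.22. Past 2-fold the same way in both libraries were 2 members on the higher side (Ackr4 and Ccl7) and 6 on the lower (Cxcl9, Cxcl12, Cxcl13, Cxcl14, Ccl8 and Cxcl5). The reporter values moved with the choice of CBFs1-like cells. Against the cluster led by C1qtnf3 alone, 7 of 23 members were higher (Ackr1, Ackr4, Ccl2, Ccl7, Cxcl1, Cxcl2 and Cxcl10) and 9 lower, against 6.0% and 5.57% of all genes, and Cxcl2 and Cxcl10 turned from -2.36 and -1.34 to 1.12 and 1.37.

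**Figure D2:**
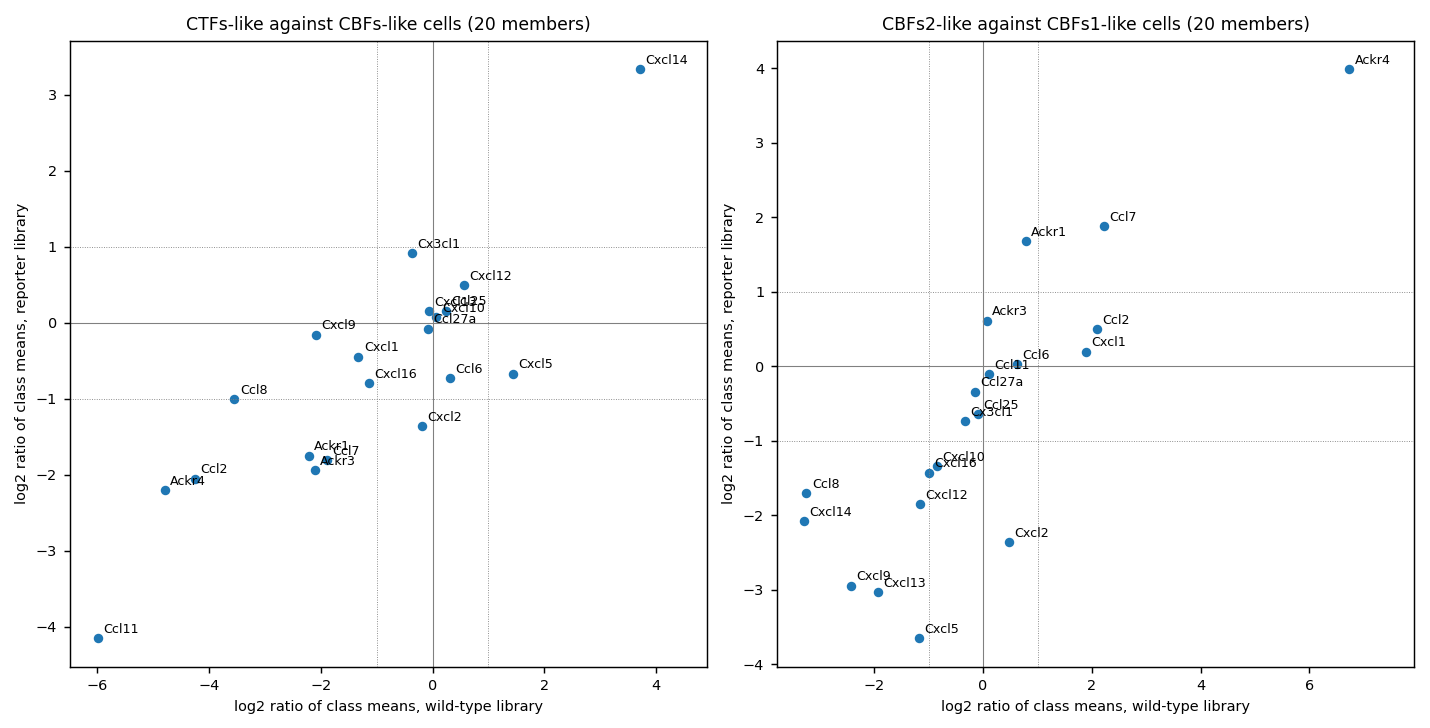
Log2 ratio of class means (0.01 added) of each member compared in both libraries, wild-type on the horizontal and reporter on the vertical axis, for CTFs-like over CBFs-like and CBFs2-like over CBFs1-like cells, 20 members in each panel. Cx3cr1 is not drawn because a class was listed at 0, and dotted lines mark 2-fold. Cxcl14 stands far to the upper right and Ccl11 to the lower left in the first panel, and Ackr4 stands to the upper right in the second.

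The CBFs1-like cells of the reporter library fell into 3 clusters that differed in their inflammatory ligands. The cluster led by Sbno2 (1091 cells) was highest for a list of activated-state genes, the cluster led by Spock3 (656 cells) for a list of inflammatory-state genes, and the cluster led by C1qtnf3 (1009 cells) was low in both. These lists hold no chemokine. Cxcl1, Cxcl2, Cxcl10, Cxcl11, Ccl2 and Ccl7 were past 2-fold higher in each of the first pair than in the third, Cxcl5 and Cxcl9 were so in the Spock3-led cluster and not in the Sbno2-led one, and Cxcl12 and Ccl11 stayed within 2-fold.

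Cxcl1 averaged 11.6 in the Spock3-led, 8.58 in the Sbno2-led and 1.03 in the C1qtnf3-led cluster. It was above 0 in 84.1% (81.1 to 86.9), 84.4% (82.1 to 86.5) and 40.3% (37.3 to 43.4) of their cells. The other reporter fibroblasts lay nearer to the first pair, with 7.46 and 76.6% (73.7 to 79.4) in CBFs2-like cells, 4.93 and 63.8% in the larger CTFs-like cluster and 5.02 and 70.3% in the Ptprr-led one, so that the C1qtnf3-led cluster was the lowest of the 6 fibroblast clusters. The neighbouring ligand Cxcl2 averaged 2.08, 1.44 and 0.0892, with 27.7% (24.3 to 31.3), 21.7% (19.3 to 24.3) and 4.76% (3.53 to 6.26) of cells above 0. For both genes the intervals of the first pair lay clear of the third. This concerns counting error among cells of 1 library only and not differences between mice, and the clusters were formed from these same cells. With every cell thinned to 1000 corrected counts, which evens out the corrected totals and not the depth sequenced, the shares for Cxcl1 were 73.8%, 70.3% and 22.5%, and those for Cxcl2 were 19.97%, 15.03% and 2.18%. Cxcl5, the neutrophil ligand next to them, was highest in the Spock3-led cluster, with 0.741 against 0.223 and 0.197.

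The Cxcr3 ligands were also highest in the Spock3-led cluster among the CBFs1-like clusters. Cxcl10 averaged 5.07, 3.11 and 0.385 in the Spock3-led, Sbno2-led and C1qtnf3-led clusters, with 67.4% (63.6 to 71.0), 55.3% (52.3 to 58.2) and 14.3% (12.2 to 16.6) of cells above 0. Cxcl9 averaged 1.38, 0.437 and 0.226, with 28.8% (25.4 to 32.4) of the Spock3-led, 14.5% (12.4 to 16.7) of the Sbno2-led and 6.54% (5.09 to 8.25) of the C1qtnf3-led cells above 0 and 2.58% of the CBFs2-like cells. Thinned shares were 49.4%, 42.4% and 7.93% for Cxcl10 and 16.9%, 7.61% and 2.97% for Cxcl9. The CTFs-like cluster led by Ptprr also carried both, with 3.16 for Cxcl10 and 1.12 for Cxcl9, the latter in 36.0% (27.1 to 45.7) of 111 cells. It was the highest cluster for Cxcl11, at 0.306 in 12 cells. Cxcl11 is annotated as a polymorphic pseudogene in the mouse.

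The monocyte ligands Ccl2 and Ccl7 were past 2-fold higher in the same pair, while Ccl8 was not. Ccl2 averaged 2.77, 1.88 and 0.533 in the Spock3-led, Sbno2-led and C1qtnf3-led clusters and 2.26 in CBFs2-like cells. Ccl7 averaged 1.39, 1.42 and 0.417, all under the 3.87 of CBFs2-like cells, in which 46.2% (42.9 to 49.7) of cells were above 0. Ccl8 averaged 0.991, 0.519 and 0.633 and was above 0 in 42.8% (39.0 to 46.7) of Spock3-led cells. Ccl11 averaged 3.65, 2.73 and 3.75, and Cxcl12 averaged 11.3, 9.49 and 13.02, so neither was past 2-fold in any pair of these clusters.

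**Figure D3:**
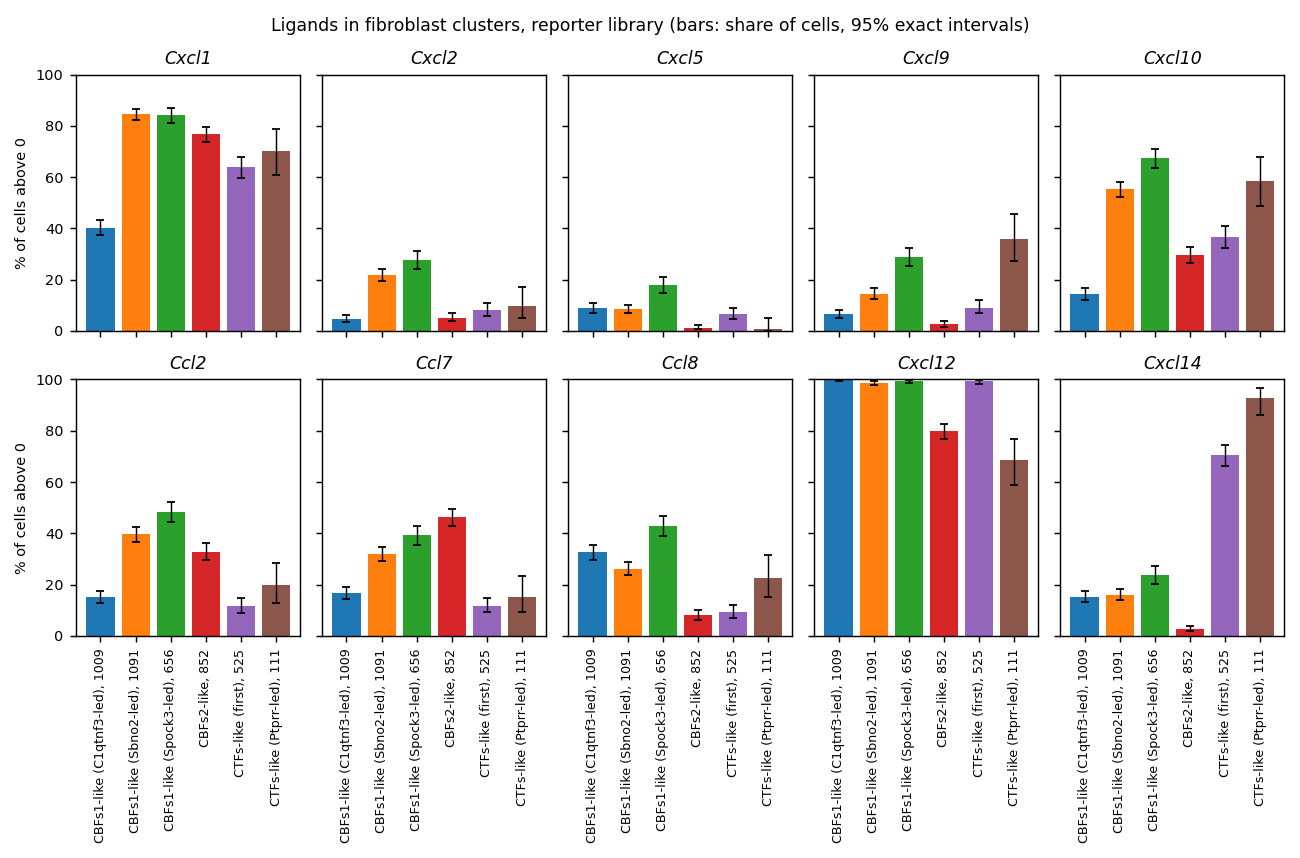
Percent of cells above 0 for the fibroblast ligands in the fibroblast clusters of the reporter library, with bars for the share and black whiskers for exact 95% Clopper-Pearson intervals (counting error only). Cxcl1, Cxcl2, Cxcl9, Cxcl10 and Ccl2 stand higher in the Spock3-led and Sbno2-led clusters than in the C1qtnf3-led cluster, with Cxcl1 at 84.1%, 84.4% and 40.3%.

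Taken over the Sbno2-led and Spock3-led clusters together (1747 cells) against the other fibroblast clusters (2497 cells), 6 of 24 members were higher past 2-fold (Cxcl1, Cxcl2, Cxcl5, Cxcl9, Cxcl10 and Ccl2) and 2 lower (Ackr4 and Cxcl14), where 0.985% and 1.77% of 12481 genes were. The other clusters include CBFs2-like and CTFs-like cells, and against the C1qtnf3-led cluster alone both lower members changed sign, to 0.16 for Ackr4 and 0.81 for Cxcl14. Cxcl2 had the largest of these ratios, 3.06, from means of 1.68 and 0.193. Cxcl1 stood at 1.198, Cxcl10 at 1.81, Cxcl9 at 1.80, Cxcl5 at 1.65 and Ccl2 at 1.01, close to the 2-fold line. The members' median was 0.20, against 0.06 over all genes.

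Against the C1qtnf3-led cluster the Spock3-led cluster had 10 of 22 members higher and 1 lower, with 9.6% and 0.148% of all genes, and the Sbno2-led cluster had 6 higher (Cxcl1, Cxcl2, Cxcl10, Cxcl11, Ccl2 and Ccl7) and 1 lower (Cxcl13), with 2.63% and 1.2%. The Spock3-led cells had a median of 1873.5 genes per cell against 1377, and the median log2 ratio was 0.43 over all genes and 0.78 over the members. A single cell held 69.8% of the Spock3-led cluster's Ccl5, and another cell took Cxcl13 from a mean of 0.411 to 0.809. In the Sbno2-led cluster, with 1243 genes per cell, the medians were -0.13 for the members and -0.17 for all genes.

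A median Spock3-led cell had 6 ligands above 0, a Sbno2-led cell 5 and a C1qtnf3-led cell 4, and 76.2%, 60.7% and 30.6% of their cells had 5 or more. Ligands made up 1.19%, 1.02% and 0.689% of the corrected counts. Cells above 0 for a ligand of a run were above 0 for its neighbour more often than the rest, though deeper cells have more of every gene. Among the 4244 reporter fibroblasts, Cxcl10 was above 0 in 70.9% of the 523 cells with Cxcl9 and in 35.6% of the rest. Cxcl2 was above 0 in 17.3% of the cells with Cxcl1 and 4.31% of the rest. Ccl7 was above 0 in 45.8% of those with Ccl2 and 22.4% of the rest. This was not limited to neighbours. Cxcl9, from a different run than Cxcl5, was above 0 in 27.03% of the cells with Cxcl5 and 11.03% of the rest. Cxcl14 was above 0 in 23.26% of the cells with Cxcl12, a ligand of another chromosome, and in 20.09% of the rest. The fibroblast clusters were pooled for these shares, and an effect of lying in the same run was not tested.

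Known targets of NF-kB, the factor that inflammatory cytokines switch on, were counted from a list of 19 genes that shares members with the state lists used to tell the clusters apart. In the 1747 cells 8 of its 18 compared genes were higher past 2-fold and 0 lower, with a median of 0.97, and 2 of 18 interferon gamma response genes were higher, with a median of 0.39, beside the 0.985% of all genes. Over the C1qtnf3-led cluster, the Spock3-led cluster had 14 of 18 NF-kB targets (median 1.84) and 13 of 18 interferon gamma response genes higher (median 1.15), and the Sbno2-led cluster 11 of 18 (median 1.40) and 5 of 18 (median 0.16), where 9.6% and 2.63% of all genes were higher. Other fibroblasts showed part of this. CBFs2-like over C1qtnf3-led cells had 7 of 17 NF-kB targets higher and 1 lower (median 0.70). For the interferon genes it was 3 of 18 and 1 (median 0.13), against 6.0% and 5.57% of all genes. CTFs-like cells over both had 6 of 18 interferon genes higher and 0 lower (median 0.72). For NF-kB it was 2 of 18 and 2 (median 0.48), against 7.48% and 5.61% of all genes. Nfkbia, the inhibitor that NF-kB induces, averaged 7.59 in the Spock3-led, 4.45 in the Sbno2-led and 0.801 in the C1qtnf3-led cluster. The cytokine Il6 averaged 1.88, 1.17 and 0.105 in the same order. Of 14 receptors and adaptors for inducing cytokines, 4 were higher in the Spock3-led cluster (Il17ra, Osmr, Tlr2 and Myd88) and 3 in the Sbno2-led cluster (Il17ra, Osmr and Myd88) over the C1qtnf3-led one. Myd88, an adaptor of interleukin 1 and Toll-like receptors, averaged 0.759, 0.269 and 0.106 in the Spock3-led, Sbno2-led and C1qtnf3-led clusters. Il1r1, the receptor of interleukin 1, averaged 0.21, 0.178 and 0.182, and Tnfrsf1a, a receptor of tumour necrosis factor, 0.752, 0.499 and 0.538. The list of 10 immune genes summed to 0.444, 0.258 and 0.407 in these clusters against 53.1 in the immune-like cluster, and its part in the ligand values was not tested.

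Among receptors, the atypical Ackr4, Ackr3 and Ackr1 reached means of at least 0.1 in a fibroblast cluster, and no signalling receptor did. Ackr4, which scavenges Ccl19, Ccl21 and Ccl25, averaged 1.33 in CBFs2-like cells of the wild-type library, where 274 of 561 cells (48.8%, 44.6 to 53.1) were above 0, and 0.00264 in CBFs1-like cells, where 2 of 1137 were. The log2 ratio was 6.73, the largest among the members compared there, and after thinning 12.3% of CBFs2-like and 0% of CBFs1-like cells were above 0. Among reporter cells it was above 0 in 13.4% (11.2 to 15.9) of CBFs2-like cells and in 4 of 2756 CBFs1-like cells, a log2 ratio of 3.99. Its ligand Ccl21a was low in fibroblasts, at 0.0513 over all of them.

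Ackr3, the scavenger of Cxcl12, was found in fibroblast and smooth muscle-like cells. Its wild-type means were 2.33 (CBFs2-like), 2.22 (CBFs1-like), 1.55 (smooth muscle-like) and 0.515 (CTFs-like). In the same order the shares of cells above 0 were 66.0% (61.9 to 69.9), 74.8% (72.2 to 77.3), 63.3% (60.1 to 66.4) and 28.4%. CTFs-like cells, with the highest Cxcl12, had the least Ackr3 of the named fibroblast types, and the reporter library gave 0.134 in CTFs-like against 0.541 in CBFs-like cells. The Ptprr-led cluster was the exception among reporter CTFs-like cells, with 35.1% (26.3 to 44.8) of cells above 0 against 5.90% (4.05 to 8.28) in the larger CTFs-like cluster, and it had the lower Cxcl12, 3.95 against 15.01 for the larger.

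Ackr2, the decoy for inflammatory CC ligands, averaged 0.357 in lymphatic endothelial-like cells, with 10 of 42 cells above 0 (23.8%, 12.1 to 39.5). Among fibroblasts it was found in 17 CBFs2-like cells (3.03%, 1.77 to 4.81) and in none of the 1137 CBFs1-like or 798 CTFs-like cells, which allows shares of up to 0.264% and 0.376% of cells above 0 and does not limit cells that express the gene below detection. The reporter library had it in 9 CBFs2-like cells. Smooth muscle-like cells against all fibroblasts had 0 of 24 members higher and 12 lower, where 5.48% and 9.72% of all genes were, with Cxcl12 and Ackr4 at -3.38, Cxcl13 at -3.39 and Ackr3 at -0.10.

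The 2 blood endothelial-like clusters of the wild-type library had different chemokine sets. The larger (495 cells) was led by genes such as Kdr and Esm1 and the smaller (98 cells) by Selp and Madcam1, adhesion genes of venules that recruit leukocytes. The first carried Cxcl12 and some Cxcr4, and the second Ackr1, Cxcl10, Cxcl9 and Cxcl1.

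Ackr1, the venular receptor that carries chemokines across the vessel wall, averaged 12.5 in the Selp-led and 0.105 in the Kdr-led cluster, with 94.9% (88.5 to 98.3) and 2.63% (1.41 to 4.45) of cells above 0. Fibroblasts had it in 6.71% of cells. Cxcl10 averaged 11.5 and 0.0727, with 42.9% (32.9 to 53.3) and 3.03% of cells. Cxcl9 averaged 0.806 and 0.0444, and Cxcl11 was above 0 in 6 Selp-led cells and listed at 0 in the Kdr-led cluster. Cxcl1 averaged 1.74 and 0.519.

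Cxcl12 ran the other way, at 0.694 in the Selp-led and 13.6 in the Kdr-led cluster, with 28.6% (19.9 to 38.6) and 97.2% (95.3 to 98.4) of cells above 0. Its receptor Cxcr4 was above 0 in 48 Kdr-led cells (9.70%, 7.24 to 12.7), at 0.176, and in 0 of 98 Selp-led cells, which allows a share of up to 3.06% of cells above 0 and sets no limit on cells that express it. Cx3cl1, the membrane-bound ligand fractalkine, averaged 0.166 and 0.0816 in the Kdr-led and Selp-led clusters. In all, 8 of 15 members were higher past 2-fold in the Selp-led cluster and 4 lower, against 13.6% and 5.9% of all genes. The Selp-led cells had 2677 genes per cell and the Kdr-led cells 2002, with a median ratio over all genes of 0.17 and of 1.14 over the members. Interferon gamma response genes were higher in 10 of 18 and NF-kB targets in 8 of 17, among them Icam1 at 6.64 against 1.38.

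**Figure D4:**
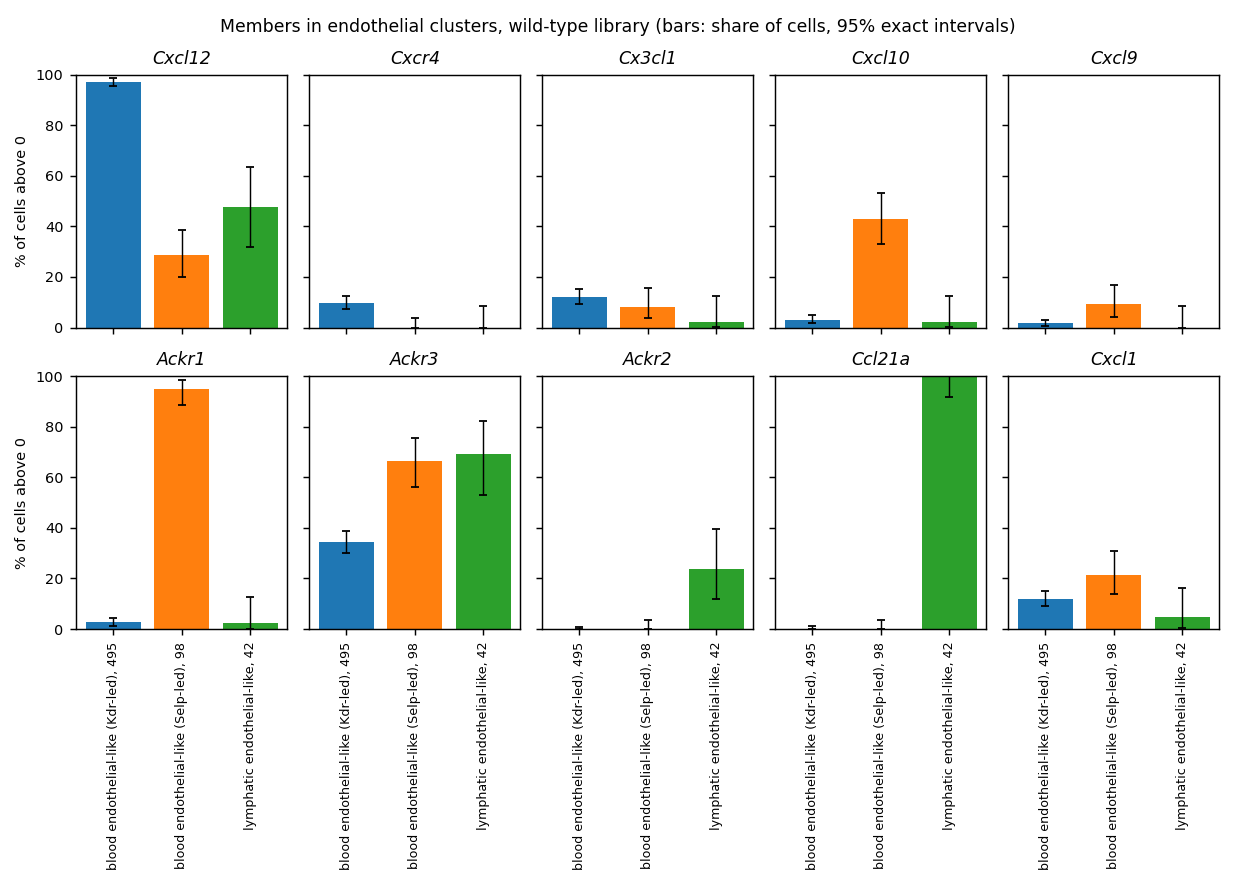
Percent of cells above 0 for chemokine members in the Kdr-led, Selp-led and lymphatic endothelial-like clusters of the wild-type library, as bars with exact 95% Clopper-Pearson intervals as black whiskers. Ackr1 and Cxcl10 are at 94.9% and 42.9% in the Selp-led cluster of 98 cells, and Cxcl12 is at 97.2% in the Kdr-led cluster of 495 cells.

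Blood endothelial-like cells as a whole against all fibroblasts (593 and 2592 cells) had 6 of 25 members higher (Ackr1, Cxcr4, Cx3cl1, Cxcl11, Cxcl9 and Cxcl10) and 11 lower, against 10.6% and 18.7% of 13622 genes. The medians were -0.78 for the members and -0.20 for all genes, and 17 of 18 interferon gamma response genes were higher. Without the Selp-led cells 2 of 24 members were higher (Cxcr4 and Cx3cl1), and Cxcl10 went from 1.33 to -3.24. After thinning of all cells to 1000 corrected counts 2 of 18 members were higher, namely Ackr1 and Cxcl10. In both settings the share of members higher was near that of all genes.

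Lymphatic endothelial-like cells (42 cells) were set apart by Ccl21a, the Ccr7 ligand that draws dendritic cells and T cells into lymphatics, at a mean of 147 with all 42 cells above 0 (91.6 to 100). The next cluster was the unnamed fibroblast cluster at 1.18, from 3 of 96 cells. Ccl21a is 1 of several near-identical copies, so its reads may be shared. Ligands were 1.89% of the corrected counts of the lymphatic endothelial-like cells, against 0.280% in CBFs1-like cells. Ackr3 was also high there, 2.74 with 69.0% (52.9 to 82.4) of cells above 0.

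Pericyte-like cells led the wild-type library for Cxcl1, at 11.2 and 66.9% (57.7 to 75.3) of 118 cells, and for Ccl11. Glia-like cells followed for Cxcl1, at 4.88 and 37.2% (26.5 to 48.9) of 78 cells, and had 0.628 of Cxcl2. An unnamed cluster of 99 cells with both mural and endothelial markers had 3.38 of Cxcl1, 9.31 of Cxcl12 and Cxcr4 in 16.2% (9.53 to 24.9) of cells. It had 3851 genes per cell, so that mixed droplets cannot be told apart from a cell type here.

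The share of members higher in epithelial than in fibroblast cells was near that of all genes. Across 2478 epithelial and 2592 fibroblast cells, 11 of 32 members were higher in the epithelium (Ccl6, Ccl9, Ccl28, Ccl20, Cx3cl1, Cxcl3, Cxcl2, Ccl25, Cxcl5, Ccl5 and Cxcl11) and 15 lower, against 33.7% and 16.2% of 15337 genes. After thinning 5 of 23 members were higher, and 5 of 32 with a pseudocount of 0.1, against 19.0% and 15.1% of all genes. These were Ccl6, Ccl9, Ccl28, Ccl20 and Cx3cl1 in both settings. The medians were -0.65 for the members and 0.50 for all genes. The lower members held the stromal ligands, with Cxcl12 at -6.14 and Ccl11 at -5.82. Ccl5, Cxcl3 and Cxcl11 were above 0 in at most 1.29% of epithelial cells.

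Goblet-like cells had the most Ccl6 of all clusters and the most Ccl9 of the epithelial ones. Both are CC ligands of Ccr1 that lie side by side on chromosome 11. Ccl6 averaged 22.5 with 92.3% (89.97 to 94.3) of 638 cells above 0, against 0.530 and 8.04% in transit-amplifying-like cells. Ccl9 averaged 1.52 with 45.9% (42.01 to 49.9) of cells, against 0.164 and 6.91%. Ccl28, the mucosal ligand that draws IgA-secreting plasma cells, ran the other way at 0.139 against 0.381. In all, 8 of 23 members were higher in goblet-like than transit-amplifying-like cells and 1, Ccl28, lower, against 11.9% and 14.9% of all genes. The highest Ccl9 was listed for the immune-like cluster, 1.93, but fell to 0.231 without a single cell.

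Ccl28 was highest in an enterocyte-like cluster and in the epithelial cluster led by Krt36, which no marker list named. It averaged 0.867 in the enterocyte-like cluster led by Atp12a and Saa1, 0.705 in the Krt36-led cluster, 0.480 in the enterocyte-like cluster led by Sptssb and Cyp2c55 and 0.381 in transit-amplifying-like cells. The shares were 58.3% (51.3 to 65.0), 48.7% (43.6 to 53.8), 39.2% (34.7 to 43.9) and 32.2% (28.7 to 35.7). The intervals of the Saa1-rich and Krt36-led clusters overlap, as do those of the Cyp2c55-rich and transit-amplifying-like cells, and they cover counting error only.

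Ccl20, the Ccr6 ligand of epithelium over lymphoid tissue, was highest in the Krt36-led cluster, at 0.355 and 14.5% (11.1 to 18.4) of cells. It was at 0.261 in the Saa1-rich, 0.140 in transit-amplifying-like and 0.0154 in Cyp2c55-rich cells. Cxcl5 was highest in the same pair, with 18.9% (15.1 to 23.3) of Krt36-led and 14.7% (10.2 to 20.2) of Saa1-rich cells above 0. Cx3cl1 averaged 0.725 in Saa1-rich, 0.403 in goblet-like and 0.330 in Cyp2c55-rich cells, and Cxcl16, a membrane-bound ligand of Cxcr6, 0.825 in Saa1-rich and 0.348 in Cyp2c55-rich cells. Against the Cyp2c55-rich cluster (454 cells) the Saa1-rich cluster (211 cells) had 9 of 17 members higher and 2 lower, where 5.8% and 12.2% of all genes were. The 9 were Ccl20, Cxcl1, Cxcl2, Cxcl3, Cxcl5, Cxcl10, Cx3cl1, Cxcl16 and Ackr3, with a median over the 17 of 1.11 against -0.08 over all genes. Cxcl3 rested on 6 and 1 cells in these clusters.

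Ccl25, the gut-homing ligand of Ccr9, was low throughout, from 0.283 with 24.3% (21.1 to 27.6) of transit-amplifying-like cells to 0.147 in the Saa1-rich cluster. Ccl27a, a skin and mucosal ligand of Ccr10, was above 0 in 24.9% (21.6 to 28.5) of goblet-like, 18.4% of smooth muscle-like and 13.9% of CBFs1-like cells. It was past 2-fold higher in goblet-like than in transit-amplifying-like cells, at 1.05 on the log2 scale, and lower in blood endothelial-like cells than in fibroblasts, at -2.13. Its near-identical copies make its counts uncertain.

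**Figure D5:**
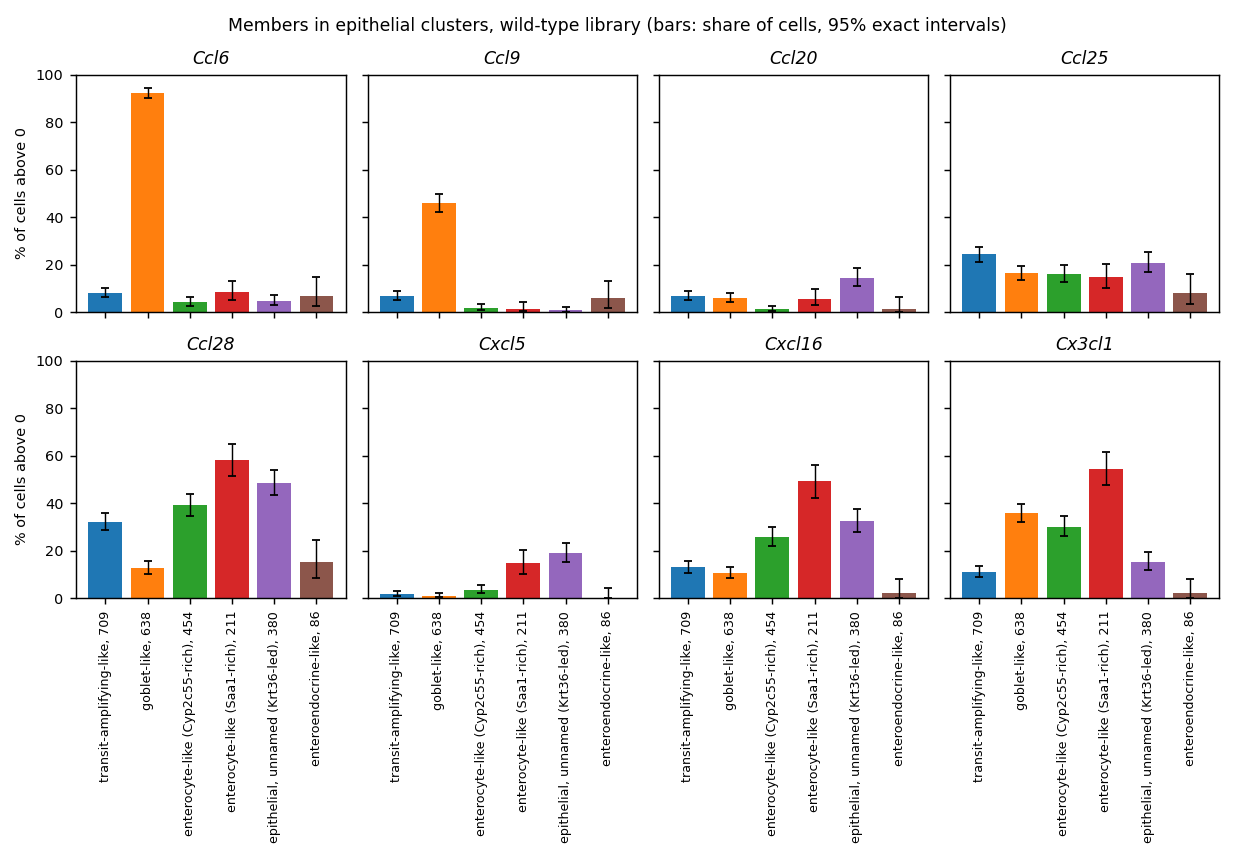
Percent of cells above 0 for epithelial ligands in the epithelial clusters of the wild-type library, as bars with exact 95% Clopper-Pearson intervals as black whiskers. Ccl6 and Ccl9 stand at 92.3% and 45.9% in goblet-like cells, and Ccl28 is at 58.3% in the Saa1-rich enterocyte-like cluster and 12.7% in goblet-like cells.

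Most signalling receptors had their highest class means in the immune-like clusters. A CD45-negative sort should have removed such cells from the wild-type library, and they were few in both. Of 40 wild-type immune-like cells, 19 had Cxcr4 (47.5%, 31.5 to 63.9), at 1.88. Ccr2, the monocyte receptor of Ccl2, was above 0 in 7, Cx3cr1, the receptor of Cx3cl1, in 6, Ccr7 in 5, Ccr10 in 4 and Cxcr6 in 4. Ccr1, Ccr9 and Cxcr3 were each above 0 in 3.

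The reporter immune-like cluster of 113 cells had Cxcr4 in 22.1% (14.9 to 30.9) and Ccr2 in 17.7% (11.2 to 26.0) of cells. Ccl5, Ccl4 and Ccl3, which attract T cells and monocytes, were also highest there, at 2.17, 0.832 and 0.168, and at 4.97, 2.77 and 0.675 in the wild-type immune-like cells. In the latter, 1 cell held 50.8% of Ccl5 and 1 cell 66.7% of Ccl3. The leading genes of both clusters included immunoglobulin genes and Cd52, with Cd74 and H2 genes in the wild-type and Lyz2 in the reporter cluster. In the wild-type cluster all 8 listed macrophage genes and all 6 listed T cell genes were above 0 in 10% or more of cells. It therefore need not be 1 cell type. In the reporter cluster all 10 general fibroblast genes were above 0 in 10% or more of cells, with a summed mean of 22.8. Mixed droplets and free RNA cannot be told apart from immune cells there.

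The receptors counted above in the wild-type immune-like cells had lower means in the other clusters, but those clusters hold many more cells. For some receptors most of the cells above 0 were therefore outside the immune-like cluster. Over all wild-type cells Cxcr4 was above 0 in 137, Ccr10 in 30, Cx3cr1 in 26 and Ccr1 in 25. Cx3cr1 was above 0 in 13 CBFs1-like cells of the wild-type library (1.14%, 0.610 to 1.95) and 1 CBFs2-like cell. Ccr1 was above 0 in 16 Cyp2c55-rich cells (3.52%, 2.03 to 5.66) and Cxcr4 in 28 goblet-like cells (4.39%, 2.94 to 6.28). Of the 6 members that stayed below 0.1, the highest means were 0.0952 for Cxcl17 in lymphatic endothelial-like cells (2 cells), 0.075 for Cxcr3 in immune-like cells, 0.0579 for Ccl19 in the Spock3-led cluster, 0.0354 for Ccl12 in the reporter immune-like cluster, 0.0208 for Cxcr2 in the unnamed fibroblast cluster (1 cell) and 0.00808 for Cxcr5 in the Kdr-led cluster (3 cells). At these levels no pattern among cell types could be read.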

How the data were processed

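The wild-type and the reporter colon library were each made from 3 pooled female mice aged 8 to 12 weeks. Per the submitters' processing notes and the study's methods, the authors counted UMIs with Cell Ranger on mm10, kept genes and cells by their own limits in Seurat 3.1 under R 3.6.2 and ran SCTransform. The score values deposited by the authors are whole-number counts corrected by SCTransform for the depth of the cell. The natural log values deposited by the authors are ln(1 + x) of those corrected values, cell by cell. The whole numbers were taken as corrected and not raw because totals per cell span only 6120 to 16389 in the wild-type and 2314 to 4432 in the reporter table. The depth sequenced is therefore unknown here.

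Cells were clustered again in Seurat 5.3.0 under R 4.3.3 from the natural log values, with 30 principal components, resolutions of 0.45 (wild-type) and 0.3 (reporter) and 2963 variable features, after 37 chemokine genes had been removed from 3000. To be named, a cluster had to exceed the other cells by 1 on the log2 scale for the list's markers. At least 3 of them had to be in 10% or more of the cells. A log2 gap of 1 was required to any other list that met these limits. Fibroblasts needed on average 8 (wild-type) or 6 (reporter) of 10 general fibroblast genes per cell. For the CTFs, CBFs1 and CBFs2 lists a fibroblast cluster was scored against the mean of the clusters highest for the other types. The limits were the same, with a log2 gap of 1 to the next type. This scoring rule was set after the clusters had been seen. Scrublet in scanpy 1.11.5 called 7 (0.0934%) and 5 (0.113%) cells doublets, so few that its threshold did not work, and all cells were kept. Its alternative left out the 375 and 220 cells with the top 5% of scores. Means, ratios (0.01 added), the filter of 20 and Clopper-Pearson intervals were computed with numpy 2.4.6, pandas 2.3.3 and scipy 1.17.1 under Python 3.11.15, and figures were drawn with matplotlib 3.10.9. The ratio step was tested on simulated data. Without replicates no test was run, and 95% intervals and the limit of 3 cells for a share of 0 cover counting error only. Alternatives were a raised resolution, 15 principal components, the family kept for clustering, cells over 10% mitochondrial counts left out, each cell thinned to 1000, class totals as the scale, a pseudocount of 0.1, no filter, and the exclusions named in the closing section.

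Every member with a mean of at least 0.1 in a class or cluster of 30 or more cells is named, except 1 that is not reported here, and the others are named with their highest mean. The members and lists were chosen with earlier results of these data known. Positions are from GENCODE M21 on GRCm38 and promoters from RefSeq on GRCm38.p6, matched by symbol.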

Additional observations from a re-analysis of the deposited data

Results flagged for a closer look

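A pair of members moved in opposite directions in the libraries under the same comparison, and neither difference was tested, since each library has no replicate. Cxcl5 had log2 ratios between CTFs-like and CBFs-like cells of 1.43 in wild-type and -0.67 in reporter cells, and the wild-type value rested on 9 CTFs-like cells and was 0.33 after thinning. Cxcl2 had a log2 ratio of CBFs2-like over CBFs1-like cells of 0.48 in wild-type cells, from means of 0.0321 and 0.0202, and of -2.36 in reporter cells, from means of 0.205 and 1.1. With the C1qtnf3-led cluster as the only CBFs1-like cells, the reporter value for Cxcl2 was 1.12.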

How the results depend on the processing

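Of 154 recomputed counts of members past 2-fold, 139 stayed within 1.5 times the reported count. For CTFs-like against CBFs-like wild-type cells, 1 member was higher when cells were thinned to 1000 corrected counts and 1 with a pseudocount of 0.1, which left 7 lower. In the reporter library 4 were higher with the chemokine genes kept for clustering, 5 without the Sbno2-led and Spock3-led clusters, and 5 lower with the pseudocount of 0.1. For CBFs2-like against CBFs1-like reporter cells, 7 were higher without those clusters. For blood endothelial-like cells, 3 were higher with 15 principal components, 2 after thinning and 2 without the Selp-led cluster, and for epithelial cells 5 after thinning and 5 with the pseudocount of 0.1. Of the members lower in the inflammatory-state clusters, there was 1 with 15 principal components, 0 with the pseudocount of 0.1 and 0 against the C1qtnf3-led cluster. Of 102 single ratios past 2-fold, 71 were past it under every alternative run, and 14 of 927 recomputed values had the other sign. Without the Sbno2-led and Spock3-led clusters Cxcl2 was 1.198 (CTFs-like) and 1.12 (CBFs2-like) and Cxcl10 1.37 (CBFs2-like). In blood endothelial-like cells with 15 principal components Ackr1 was -1.87, Cxcl9 -0.20, Cxcl10 -3.21 and Cxcl11 -0.25. Without the Selp-led cluster Cxcl10 was -3.24 and Cxcl11 -0.25, and without the Kdr-led cluster Cxcr4 was -0.79. For epithelial cells Ccl21a was 0.12 with the chemokine genes kept and 0.16 without the unnamed fibroblast cluster, and against the C1qtnf3-led cluster Ackr4 was 0.16 and Cxcl14 0.81 in the state comparison. The cause was not tested for these. Leaving out clusters, or the highest cell of each gene, was chosen after seeing the data. No paired analysis was possible because each condition is 1 library, and no library could be left out. Corrected counts hide the depth of each cell, so low members such as the receptors are limited by the number of cells.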

Other observations

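Relatives of the family that its naming rule leaves out also differed between clusters. Rarres2, the precursor of the attractant chemerin, averaged 26.9 in CBFs1-like, 18.7 in CTFs-like and 8.12 in CBFs2-like wild-type cells, and its receptor Cmklr1 was highest in CBFs2-like cells, at 0.283. Pf4, a CXC chemokine with a name of its own, averaged 2.9 in wild-type and 0.372 in reporter immune-like cells. Gpr182, an endothelial receptor that takes up chemokines, averaged 1.0 in lymphatic endothelial-like and 0.49 in Selp-led cells, against 0.0283 in the Kdr-led cluster. Ccrl2 averaged 1.05 in wild-type immune-like cells and 0.351 in the Ptprr-led reporter CTFs-like cluster.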
